A study of Homo sapiens with 12 samples.

Results

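The genes described here are 38 targets and partners of ATF4, the transcription factor that cells use to answer a shortage of amino acids. They are listed by gene symbol, with no measured value in the rule, as a set of ATF4 regulators, amino acid enzymes and transporters, and cytosolic tRNA synthetases. The list was chosen with earlier results of these data known, so comparisons with all genes are not those of a blind list. All 38 were found among the 19907 genes with values, and all 38 passed the filter on low values, as did 15957 genes in all. The synthetases stand in the files under older symbols, so that WARS is the gene now called WARS1.

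The cells were MDA-MB-231, a human triple-negative breast cancer line, and expressed either S134A-GR, a glucocorticoid receptor with alanine in place of the serine at the position in its name, or the wild-type receptor, WT-GR. Both kinds of cell were starved of serum for 18 h in IMEM with 1% DCC and then given 1 µM Dex (dexamethasone, a synthetic glucocorticoid) or vehicle for 6 h. The 4 groups were thus S134A-GR cells in Dex, S134A-GR cells in vehicle, WT-GR cells in Dex and WT-GR cells in vehicle, with 3 libraries each and 12 in all. The sources used here do not say how the receptors were introduced, whether each line is a clone or whether any endogenous receptor remained, so an effect of the receptor and a difference between lines cannot be told apart. Whether the 3 libraries of each group are separate cultures is not in the labels, and p-values therefore stand for the spread between these libraries alone, which may be technical.

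When amino acids run short or proteins fold badly, kinases such as GCN2 (EIF2AK4) and PERK (EIF2AK3) phosphorylate the translation factor eIF2. Most protein synthesis then slows while the ATF4 mRNA is translated more, so that the ATF4 protein can rise with little change in its mRNA. ATF4 pairs with C/EBP and related leucine zipper proteins, binds C/EBP-ATF response elements, and turns on genes that take up, make and activate amino acids, together with feedback genes such as TRIB3 and PPP1R15A. RNA levels are what was measured here; neither eIF2 phosphorylation nor ATF4 protein was.

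The response element through which ATF4 and its partners act was looked for as the 8 letters TGATGNAA, on both strands, in RefSeq promoter windows of build GRCh38.p14 that run from 250 bases before to 50 after each gene start. Of the 38 genes, 31 have windows in that table and 13 of these hold the motif, which is 41.9%, against 4.46% of all 27305 genes in the table. Counted by window it is 13 of 47, or 27.7%, against 3.62% of all 35116 windows. No window was found in the table for ALDH1L2, EIF4EBP1, NUPR1, PSPH, PYCR1, SHMT2 and SLC7A11. The 13 stretches of 30 bases around the motif are shown because they make the shared element visible. They are written 5′ to 3′ on the gene's own strand with the motif in capitals, which is TTNCATCA where the match lies on the other strand, and the distance is that of the motif's first letter.
ASNS (chr7:97872458-97872487, minus strand, 68 bases before the start): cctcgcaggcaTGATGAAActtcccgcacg
CEBPG (chr19:33374060-33374089, plus strand, 42 bases before the start): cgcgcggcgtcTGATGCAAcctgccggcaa
CHAC1 (chr15:40953251-40953280, plus strand, 209 bases before the start): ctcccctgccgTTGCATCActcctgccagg
SLC1A4 (chr2:64989381-64989410, plus strand, 7 bases before the start): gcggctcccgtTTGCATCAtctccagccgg
SLC7A1 (chr13:29595663-29595692, minus strand, 7 bases after the start): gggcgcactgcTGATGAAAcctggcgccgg
SLC3A2 (chr11:62881719-62881748, plus strand, 37 bases after the start): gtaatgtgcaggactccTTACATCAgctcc
AARS (chr16:70289675-70289704, minus strand, 187 bases before the start): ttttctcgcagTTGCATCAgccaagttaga
CARS (chr11:3057407-3057436, minus strand, 2 bases before the start): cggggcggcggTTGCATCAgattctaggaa
GARS (chr7:30594834-30594863, plus strand, 33 bases before the start): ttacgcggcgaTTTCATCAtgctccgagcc
IARS (chr9:92293692-92293721, minus strand, 13 bases before the start): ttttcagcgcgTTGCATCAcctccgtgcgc
MARS (chr12:57488053-57488082, plus strand, 4 bases before the start): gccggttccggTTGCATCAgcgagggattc
NARS (chr18:57621804-57621833, minus strand, 14 bases after the start): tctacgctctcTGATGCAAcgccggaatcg
TARS (chr5:33440956-33440985, plus strand, 2 bases after the start): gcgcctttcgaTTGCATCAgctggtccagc
The same 8 letters, TTGCATCA on the gene's strand, stood in 7 of the 13 stretches: those of CHAC1, SLC1A4, AARS, IARS, MARS, TARS and CARS. Of the 13 genes with the motif, 7 are tRNA synthetases, and in all of these but AARS it lies within 33 bases of the start. The ASNS match is the known nutrient-sensing response element of that gene, and the 250 bases before the ASNS start, shown as the best studied promoter of the pathway, lie at chr7:97872409-97872658 on the minus strand.
ASNS promoter: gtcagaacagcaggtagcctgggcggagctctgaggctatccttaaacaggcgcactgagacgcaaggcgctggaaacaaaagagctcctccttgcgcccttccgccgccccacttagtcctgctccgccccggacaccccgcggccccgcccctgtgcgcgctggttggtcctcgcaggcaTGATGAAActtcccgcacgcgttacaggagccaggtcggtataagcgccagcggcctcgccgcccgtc
A match describes the letters and does not show that a factor binds there, and a window without one says only that these letters are not in it.

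Values are normalized counts, that is, read counts divided by a size factor of their library. The Dex values stand beside shifted gene names in the files and were given the names of the vehicle libraries by line order, so every result in Dex rests on that match. The libraries held 82.4 to 100.6 M recovered reads in S134A-GR cells and 56.4 to 93.8 M in WT-GR cells. The line's own markers were high, with VIM at 372616 to 428768 and AXL at 100133 to 118895 normalized counts in the group means, while group means of ESR1 and CDH1 did not exceed 3.24 and 12.4. Of that list of 5 hormone receptor, HER2 and epithelial markers 4 were found, and the others were expressed, ERBB2 at 8891 to 11482 and GATA3 at 808 to 1489 in the group means. The list summed to 12169 to 13579 in S134A-GR Dex, 11413 to 11719.8 in S134A-GR vehicle, 12143 to 13043 in WT-GR Dex and 9667 to 9763 in WT-GR vehicle. Of the 5 blood-cell markers 2 were found, PTPRC and CD14, and they summed to 6.34 to 9.42 in S134A-GR Dex, 8.11 to 16.9 in S134A-GR vehicle, 24.4 to 62.9 in WT-GR Dex and 29.6 to 37.5 in WT-GR vehicle. The 5 fibroblast and endothelial markers summed to 5450 to 5715 in S134A-GR Dex, 5262 to 5512 in S134A-GR vehicle, 5799 to 6930 in WT-GR Dex and 4719 to 5040 in WT-GR vehicle, with COL3A1 near 0 throughout. Within each treatment the ranges of the blood-cell sum and of the fibroblast and endothelial sum were apart between genotypes, those of the hormone receptor, HER2 and epithelial sum were apart in vehicle only, and mean depth was higher in S134A-GR cells, and the part of these in the results was not tested. In such bulk libraries, fewer cells of a type and less RNA per cell cannot be told apart. WT-GR Dex replicates 2 and 3 stood apart in the number of genes with a single read, 193 and 210. The other 10 libraries held 352 to 409. Where a call of the 38 genes was lost without both replicates, the value without them is given. For other calls that value is not given. Leaving out both leaves WT-GR Dex with 1 library, whose spread is then assumed to be that of the other groups.

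Per kilobase of exon (GENCODE 29, GRCh38), ATF4 itself had the highest level of the 38 genes, with 11492 normalized counts per kb in Dex and 11589.9 in vehicle in S134A-GR cells, and 16601 in Dex and 14882 in vehicle in WT-GR cells. In WT-GR vehicle it was followed on the same scale by SARS at 7943, SLC7A5 at 7439 and SHMT2 at 7271. At the other end stood NUPR1 at 32.3, STC2 at 14.5 and ALDH1L2 at 6.43 per kb. The length used was that of all annotated exons of a gene combined, such as 5.67 kb for NUPR1 and 9.22 kb for PHGDH. Levels per kb are therefore understated where the expressed transcript is shorter, and ranks on this scale depend on the annotation. Most of the genes varied little between libraries of a group: their median SD on the log2 scale was 0.058 in Dex and 0.035 in vehicle for S134A-GR cells, and 0.12 in Dex and 0.045 in vehicle for WT-GR cells. Over all genes tested it was 0.091 in Dex and 0.065 in vehicle for S134A-GR cells, and 0.15 in Dex and 0.094 in vehicle for WT-GR cells. The most variable gene of the 38 was CARS in every group except WT-GR Dex, where STC2 had an SD of 0.43. CARS had SDs of 0.76 in Dex and 0.31 in vehicle for S134A-GR cells, and 0.32 in Dex and 0.92 in vehicle for WT-GR cells.

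**Figure D1:**
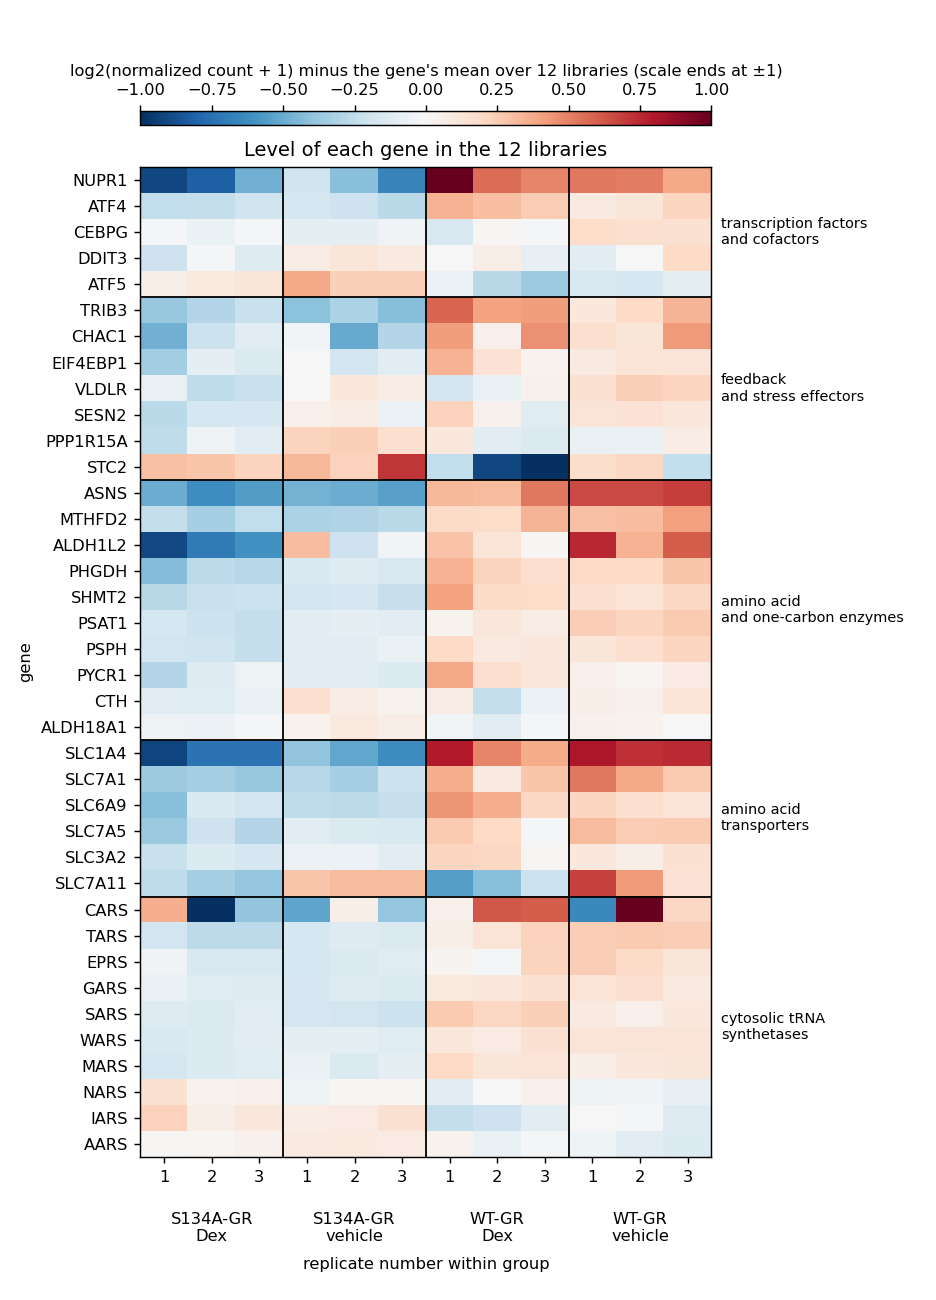
Level of the 38 genes (rows, grouped by role and ordered by the genotype difference in vehicle) in the 12 libraries (columns, 3 per group, S134A-GR left of WT-GR), as log2(normalized count + 1) minus the gene's mean over all libraries. Most rows are blue in the 6 S134A-GR columns and red in the 6 WT-GR columns. STC2, ATF5 and IARS run the other way, SLC7A11 follows treatment, and CARS varies widely within groups.

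S134A-GR cells had lower levels of most of these genes than WT-GR cells, with and without Dex. In Dex, 28 of 38 passed the threshold, 25 lower and 3 higher in S134A-GR cells, beside 49.7% of all genes tested (26.3% lower and 23.4% higher). In vehicle, 27 passed, 23 lower and 4 higher, beside 50.5% of all genes (26.7% lower and 23.8% higher). The threshold was a Benjamini-Hochberg adjusted p of 0.05 over all 15957 genes in limma on log2(value + 1). The median log2 difference over the 38 genes was -0.33 in Dex and -0.27 in vehicle, against 0.011 over all genes in each. The list was lower in both treatments in 22 genes, against 20.0% of all genes, and higher in both in 2, ATF5 and IARS, against 16.7%. In 23 genes every one of the 6 S134A-GR libraries lay below every one of the 6 WT-GR libraries, which held for 16.6% of all genes, and 3 genes (STC2, ATF5 and IARS) showed the opposite, against 14.5%. Taken within a treatment, the groups did not overlap in 25 genes lower and 3 higher in Dex, against 27.1% and 25.3% of all genes, and in 27 lower and 5 higher in vehicle, against 32.7% and 31.5%. No call changed its direction under any alternative run, and 23 of the 28 calls in Dex and 22 of the 27 in vehicle passed under every alternative in which the gene was tested. Of these, ALDH1L2 was not tested with the minimum of 100. Scaling by library size in edgeR moved the median of all genes to 0.11 in Dex and 0.086 in vehicle, and of all genes called, 64.9% were then higher in Dex in place of 47.0%, and 59.6% in vehicle in place of 47.2%. Relative to all genes the median of the 38 was then -0.33 in Dex and -0.27 in vehicle, with 6 higher and 23 lower in Dex and 5 higher and 21 lower in vehicle.

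**Figure D2:**
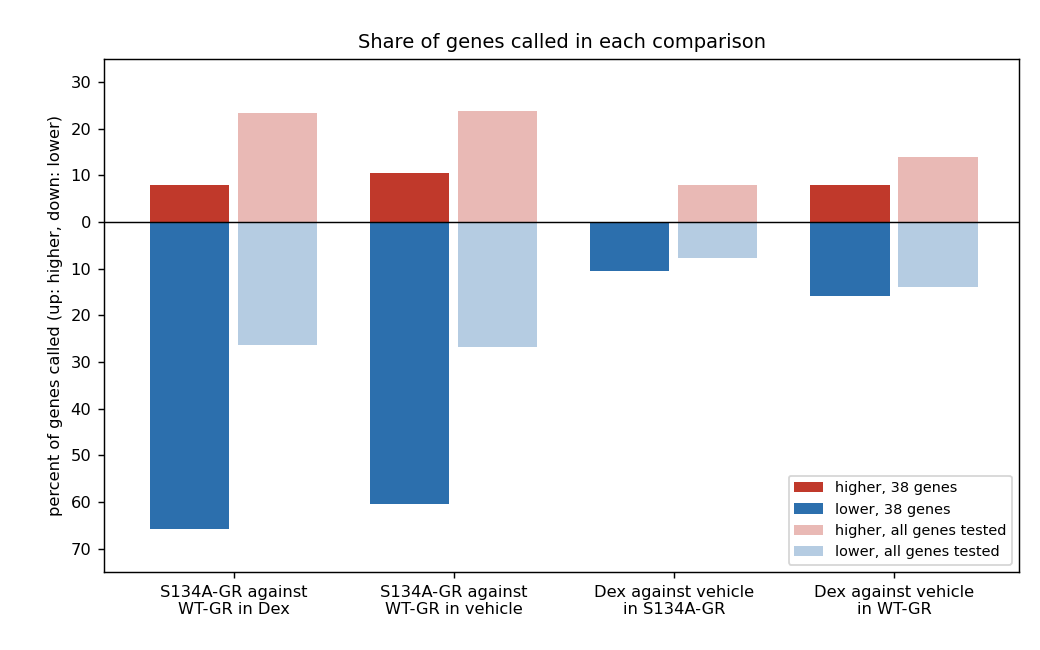
Percent of the 38 genes (full colour) and of all 15957 genes tested (pale) called higher (up) or lower (down) in each of 4 comparisons at a limma adjusted p under 0.05. In the genotype comparisons 25 and 23 of the 38 genes were lower in S134A-GR cells, against 26.3% and 26.7% of all genes. Dex comparisons called 4 of the 38 in S134A-GR and 9 in WT-GR cells, against 15.7% and 27.9% of all genes.

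Among the transcription factors, ATF4 and NUPR1 were lower in S134A-GR cells and ATF5 was higher. ATF4 had 28492, 28644 and 29539 normalized counts in S134A-GR Dex, against 43099.8, 41788 and 40316 in WT-GR Dex libraries. In vehicle ATF4 had 30015, 29348 and 28048 in S134A-GR, against 36011, 36869.9 and 39357 in WT-GR libraries. All 6 S134A-GR libraries lay below all 6 WT-GR libraries, and the highest values were those of WT-GR cells in Dex. The log2 difference of ATF4 was -0.53 ± 0.044 in Dex and -0.36 ± 0.044 in vehicle (SE, limma adjusted p = 5.9e-07 and 1.8e-05), that is 1.44-fold and 1.28-fold lower. NUPR1, a small stress-induced chromatin protein, had 69.7, 74.4 and 94.2 normalized counts in S134A-GR Dex, against 273, 195 and 185 in WT-GR Dex. In vehicle NUPR1 had 115, 98.3 and 82.9 in S134A-GR, against 191, 188 and 172 in WT-GR. These groups did not overlap either, although the counts were low and spread widely in WT-GR Dex. The log2 difference of NUPR1 was -1.43 ± 0.19 in Dex and -0.90 ± 0.19 in vehicle (SE, limma adjusted p = 3.6e-05 and 0.0014).

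DDIT3, which encodes the pro-apoptotic factor CHOP, passed in none of the comparisons. DDIT3 had 1449.7, 1649.7 and 1529.5 normalized counts in S134A-GR Dex, against 1682, 1749.9 and 1578 in WT-GR Dex. In vehicle DDIT3 had 1759, 1819.6 and 1778 in S134A-GR, against 1549.5, 1680.4 and 1927 in WT-GR. The genotypes overlapped in both treatments, with a 95% interval of the log2 difference of -0.29 to 0.058 in Dex and -0.11 to 0.23 in vehicle. DDIT3 shares 355 exon bases, 27.2% of its own, with MARS on the opposite strand, and since no use of strand in the counting is stated, reads of the pair cannot be told apart. ATF5, a relative of ATF4 that is also translated more when eIF2 is phosphorylated, averaged 3177 ± 73.8 in S134A-GR and 2545 ± 278 in WT-GR cells in Dex, and 3636 ± 208 in S134A-GR and 2702 ± 87.3 in WT-GR cells in vehicle (SD, n = 3 each). The log2 difference of ATF5 was 0.33 ± 0.072 in Dex and 0.43 ± 0.072 in vehicle (SE, limma adjusted p = 0.0020 and 2.4e-04); with WT-GR Dex replicates 2 and 3 left out, and so 1 library of that group, that in Dex was 0.15 and did not pass. ATF5 shares 626 exon bases (21.2%) with NUP62 on the opposite strand. CEBPG, a C/EBP partner of ATF4, was lower in S134A-GR cells in vehicle, at 3691 ± 93.0 against 4362 ± 52.7 in WT-GR (log2 difference -0.24 ± 0.051, limma adjusted p = 0.0014), and did not pass in Dex (0.023 ± 0.051).

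Of the 7 feedback and stress genes, 4 were lower and 1 was higher in S134A-GR cells in Dex, and 3 were lower and 1 higher in vehicle. TRIB3, a pseudokinase that restrains ATF4, had 2577, 2729.6 and 2859 normalized counts in S134A-GR Dex, against 5021, 4422 and 4465 in WT-GR Dex. In vehicle TRIB3 had 2521, 2683 and 2495 in S134A-GR, against 3593, 3843 and 4231 in WT-GR. Every S134A-GR library was below every WT-GR library, and the log2 difference of TRIB3 was -0.77 ± 0.071 in Dex and -0.60 ± 0.071 in vehicle (SE, limma adjusted p = 1.4e-06 and 1.3e-05). CHAC1, which breaks down glutathione, had 249, 301 and 323 in S134A-GR Dex, against 466, 362 and 480.0 in WT-GR Dex. In vehicle CHAC1 had 343, 246 and 284 in S134A-GR, against 391, 379 and 469.6 in WT-GR. The genotypes did not overlap, but the libraries of each group differed from one another more than for TRIB3. The log2 difference of CHAC1 was -0.58 ± 0.16 in Dex and -0.51 ± 0.16 in vehicle (SE, limma adjusted p = 0.0074 and 0.015). In vehicle it missed the threshold without S134A-GR vehicle replicate 2 (-0.40) or WT-GR vehicle replicate 3 (-0.42), and in Dex with library weights (-0.37).

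STC2, a secreted glycoprotein induced by stress, ran the other way. It had 105, 103 and 99.8 normalized counts in S134A-GR Dex, against 71.7, 44.9 and 40.7 in WT-GR Dex. In vehicle STC2 had 107, 100.4 and 141 in S134A-GR, against 96.1, 98.3 and 71.6 in WT-GR. All S134A-GR libraries lay above all WT-GR libraries, in vehicle by a narrow margin, and WT-GR Dex replicates 2 and 3 were the lowest of the 12. The log2 difference of STC2 was 1.00 ± 0.23 in Dex (SE, limma adjusted p = 0.0029) and 0.38 ± 0.23 in vehicle, which did not pass (0.19); with only replicate 1 of WT-GR Dex kept it was 0.51 in Dex and did not pass. EIF4EBP1, a repressor of cap-dependent translation, averaged 5408 ± 483 in S134A-GR and 6996 ± 769.9 in WT-GR cells in Dex (SD, n = 3 each; log2 difference -0.37 ± 0.081, limma adjusted p = 0.0019). In vehicle its difference of -0.22 passed (limma adjusted p = 0.038), but not without S134A-GR vehicle replicate 2 (-0.17) or 3 (-0.21), or WT-GR vehicle replicate 1 (-0.23), 2 (-0.21) or 3 (-0.21). Nor did EIF4EBP1 pass there in edgeR with TMM (-0.20) or library-size scaling (-0.14), or with the replicate number as a block (-0.22). SESN2, a leucine sensor of the mTORC1 pathway, was lower in Dex (-0.26 ± 0.081, limma adjusted p = 0.018). It did not pass there without S134A-GR Dex replicate 1 (-0.22) or WT-GR Dex replicate 1 (-0.17), with library-size scaling (-0.14) or with only the compared groups in the fit (-0.26). In vehicle SESN2 did not pass (-0.11). PPP1R15A, the GADD34 subunit that brings a phosphatase to eIF2, was higher in S134A-GR cells in vehicle (0.23 ± 0.070, limma adjusted p = 0.013); it missed the threshold without WT-GR vehicle replicate 1 (0.21) or 2 (0.21), and in Dex its difference was -0.087. VLDLR, a lipoprotein receptor, differed by -0.11 in Dex and -0.14 in vehicle and passed in neither.

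Of the 10 amino acid and one-carbon enzymes, 8 were lower in S134A-GR cells in Dex and 6 in vehicle, and none was higher. ASNS, asparagine synthetase, had 2325, 2136 and 2228 normalized counts in S134A-GR Dex, against 4135, 4099 and 4731 in WT-GR Dex. In vehicle ASNS had 2362, 2327 and 2250.4 in S134A-GR, against 5199, 5186 and 5304 in WT-GR. The genotypes stood far apart, and the libraries of each S134A-GR group were close to one another. ASNS was 1.93-fold lower in Dex and 2.26-fold lower in vehicle, with log2 differences of -0.95 ± 0.059 and -1.18 ± 0.059 (SE, limma adjusted p = 4.1e-08 and 5.8e-09). MTHFD2, the mitochondrial methylenetetrahydrofolate dehydrogenase, had 3354, 3143 and 3335 in S134A-GR Dex, against 4514, 4492 and 5011 in WT-GR Dex. In vehicle MTHFD2 had 3183, 3219.5 and 3281 in S134A-GR, against 4857, 4901 and 5258 in WT-GR. All S134A-GR libraries lay below all WT-GR libraries, with log2 differences of -0.51 ± 0.055 in Dex and -0.63 ± 0.055 in vehicle (SE, limma adjusted p = 5.7e-06 and 8.0e-07). MTHFD2 shares 27.2% of its exon bases with SLC4A5 on the opposite strand.

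PHGDH, the first enzyme of serine synthesis from a glycolytic intermediate, had 10052, 11283 and 11129.7 normalized counts in S134A-GR Dex, against 17280.2, 15809.6 and 15218 in WT-GR Dex. In vehicle PHGDH had 12193, 12399.7 and 12116 in S134A-GR, against 15569, 15572 and 16461 in WT-GR. The lowest values were those of S134A-GR cells in Dex, and no S134A-GR library reached the WT-GR range. The log2 difference of PHGDH was -0.57 ± 0.055 in Dex and -0.37 ± 0.055 in vehicle (SE, limma adjusted p = 2.0e-06 and 8.2e-05). The next steps of that route, PSAT1 and PSPH, were lower too: PSAT1 by -0.28 in Dex and -0.35 in vehicle, and PSPH by -0.34 and -0.26 on the log2 scale (limma adjusted p at most 5.9e-04). SHMT2, which turns serine into glycine in mitochondria, averaged 26519.9 ± 657 in S134A-GR and 37531 ± 3223 in WT-GR cells in Dex, and 27349 ± 595 in S134A-GR and 35175 ± 815 in WT-GR cells in vehicle (SD, n = 3 each), with log2 differences of -0.50 ± 0.053 and -0.36 ± 0.053 (SE, limma adjusted p = 5.0e-06 and 7.5e-05). ALDH1L2, a mitochondrial folate enzyme with low counts, had 19.0, 21.9 and 23.5 in S134A-GR Dex, against 44.4, 39.9 and 36.6 in WT-GR Dex. In vehicle ALDH1L2 had 45.2, 31.4 and 35.6 in S134A-GR, against 61.9, 46.5 and 55.8 in WT-GR. The groups did not overlap within a treatment, but its difference passed in Dex (-0.88 ± 0.25, limma adjusted p = 0.0094) and not in vehicle (-0.54 ± 0.25, 0.083).

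The other 3 enzymes make proline or cysteine. PYCR1, the last enzyme of proline synthesis, was lower in S134A-GR cells in Dex (-0.38 ± 0.069, limma adjusted p = 5.3e-04) and did not pass in vehicle (-0.17 ± 0.069, 0.060); 14.1% of its exon bases are shared with MYADML2 on the same strand. ALDH18A1, the first enzyme of that route, passed in neither, with 95% intervals of -0.076 to 0.095 in Dex and -0.047 to 0.12 in vehicle. CTH, which makes cysteine from cystathionine, also passed in neither, with intervals of -0.21 to 0.17 and -0.18 to 0.20.

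**Figure D3:**
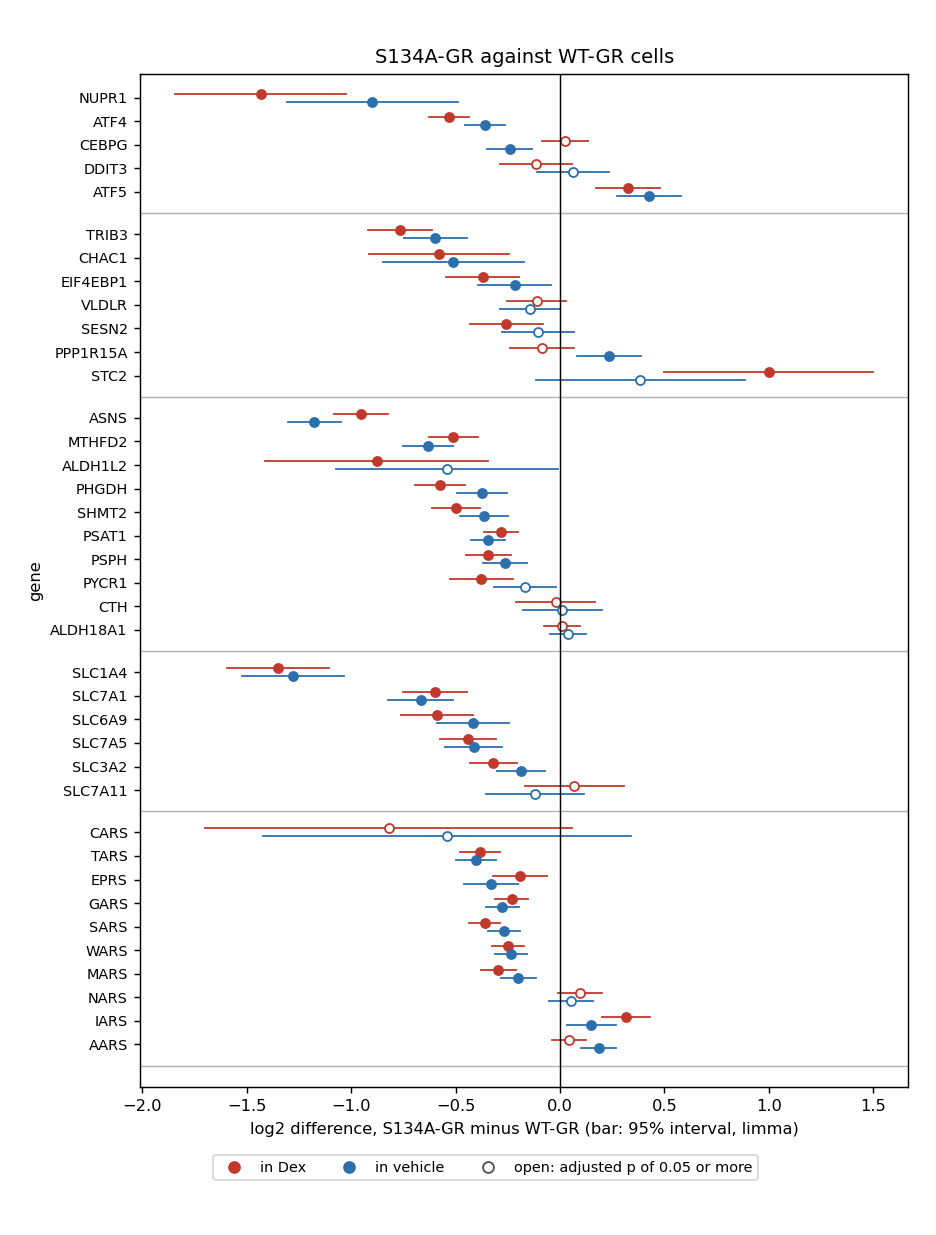
Log2 difference of each of the 38 genes, S134A-GR minus WT-GR, in Dex (red, upper mark of each pair) and in vehicle (blue, lower mark), with 95% intervals from limma; open marks did not pass the adjusted p of 0.05. NUPR1, SLC1A4 and ASNS lie farthest to the left, at -1.43, -1.35 and -0.95 in Dex, and STC2 lies farthest to the right at 1.00.

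Of the 6 transporters, 5 were lower with and without Dex in S134A-GR cells, and only SLC7A11 passed in neither. SLC1A4, a carrier of alanine, serine, cysteine and threonine, had 272, 308 and 308 normalized counts in S134A-GR Dex, against 891, 724 and 667 in WT-GR Dex. In vehicle SLC1A4 had 391, 358 and 331 in S134A-GR, against 903, 855 and 861 in WT-GR. The highest S134A-GR library stood well below the lowest WT-GR library. SLC1A4 was 2.55-fold lower in Dex and 2.42-fold lower in vehicle, with log2 differences of -1.35 ± 0.11 and -1.28 ± 0.11 (SE, limma adjusted p = 5.5e-07 and 8.9e-07). SLC7A1, a carrier of arginine and lysine, had 15487, 15760.5 and 15264 in S134A-GR Dex, against 25506, 21157 and 24008 in WT-GR Dex. In vehicle SLC7A1 had 16279.9, 15788 and 17087 in S134A-GR, against 28628, 25845 and 23783 in WT-GR. The S134A-GR libraries lay close together below the wider WT-GR range, and the log2 difference of SLC7A1 was -0.60 ± 0.071 in Dex and -0.67 ± 0.071 in vehicle (SE, limma adjusted p = 1.4e-05 and 5.3e-06).

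SLC6A9, a glycine transporter, had 1030.2, 1237 and 1208 normalized counts in S134A-GR Dex, against 1866, 1769 and 1587 in WT-GR Dex. In vehicle SLC6A9 had 1152, 1151 and 1171 in S134A-GR, against 1597, 1539 and 1508 in WT-GR. No library of one genotype reached the range of the other, and the log2 difference of SLC6A9 was -0.59 ± 0.080 in Dex and -0.42 ± 0.080 in vehicle (SE, limma adjusted p = 4.3e-05 and 6.5e-04). SLC7A5 and SLC3A2 form a heterodimer that exchanges glutamine for leucine and other large neutral amino acids. SLC7A5 averaged 23866 ± 1402 in S134A-GR and 32462 ± 3177 in WT-GR cells in Dex, and 26523 ± 416 in S134A-GR and 35298 ± 842 in WT-GR cells in vehicle (SD, n = 3 each), with log2 differences of -0.44 ± 0.063 and -0.41 ± 0.063 (SE, limma adjusted p = 6.9e-05 and 1.1e-04). SLC3A2 differed by -0.32 ± 0.053 in Dex and -0.19 ± 0.053 in vehicle (SE, limma adjusted p = 2.2e-04 and 0.0092); the value in vehicle was -0.11 and did not pass when edgeR scaled by library size. SLC7A11, which pairs with the same SLC3A2 chain to import cystine, differed by 0.069 in Dex and -0.12 in vehicle, with 95% intervals of -0.17 to 0.30 and -0.35 to 0.12.

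Of the 10 cytosolic tRNA synthetases, which load amino acids onto their tRNAs, 6 were lower in S134A-GR cells whether or not Dex was given: TARS, SARS, WARS, GARS, MARS and EPRS. TARS, for threonine, averaged 21732 ± 600.5 normalized counts in S134A-GR and 28349 ± 1739.8 in WT-GR cells in Dex, and 23108 ± 398 in S134A-GR and 30539 ± 138 in WT-GR cells in vehicle (SD, n = 3 each). The differences of this group were small and even: TARS -0.38 in Dex and -0.40 in vehicle, SARS -0.36 and -0.27, MARS -0.30 and -0.20, WARS -0.25 and -0.24, GARS -0.23 and -0.28 on the log2 scale, each with a limma adjusted p of at most 7.7e-04. EPRS, for glutamate and proline, differed by -0.19 ± 0.060 in Dex (SE, limma adjusted p = 0.018) and -0.33 ± 0.060 in vehicle (4.4e-04). In Dex the EPRS call was lost without S134A-GR Dex replicate 2 (-0.17) or 3 (-0.17), or WT-GR Dex replicate 3 (-0.12), with both WT-GR Dex replicates 2 and 3 left out (-0.14), and in edgeR with library-size scaling (-0.077, adjusted p = 0.33). It was also lost with only the compared groups in the fit (-0.19). For these 6 genes every S134A-GR library lay below every WT-GR library.

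The other synthetases did not pass as lower in either treatment. IARS, for isoleucine, was higher in S134A-GR cells, at 31313 ± 1924 against 25133 ± 1134 in WT-GR in Dex and 30625 ± 876 against 27600.3 ± 1352 in WT-GR in vehicle (SD, n = 3 each), with log2 differences of 0.32 ± 0.053 and 0.15 ± 0.053 (SE, limma adjusted p = 2.7e-04 and 0.031). In vehicle the IARS call was lost without any 1 of S134A-GR vehicle replicates 1 (0.16), 2 (0.16) and 3 (0.13) and WT-GR vehicle replicates 2 (0.16) and 3 (0.11). It was also lost there with the replicate number as a block (0.15). AARS, for alanine, was higher in vehicle (0.19 ± 0.039, limma adjusted p = 0.0012) and did not pass in Dex (0.043 ± 0.039). NARS, for asparagine, passed in neither, with 95% intervals of -0.011 to 0.20 in Dex and -0.055 to 0.16 in vehicle. CARS, for cysteine, had 1454, 508 and 858 normalized counts in S134A-GR Dex and 1173, 1738 and 1718 in WT-GR Dex. In vehicle CARS had 783, 1180.0 and 863 in S134A-GR and 723, 2599.9 and 1304 in WT-GR. The CARS means were lower in S134A-GR cells, at 940 against 1543 in WT-GR in Dex and 942 against 1542 in WT-GR in vehicle. The log2 differences of CARS, -0.82 in Dex and -0.54 in vehicle, were the lowest of the 10 synthetases. Its libraries differed widely within most groups, and the genotypes overlapped in both treatments. The 95% intervals of these differences, -1.70 to 0.060 in Dex and -1.42 to 0.34 in vehicle, held 0. CARS, IARS, AARS and NARS hold the ATF4 motif in the promoter stretches shown above, as do TARS, GARS and MARS. Over the list, the motif was found in 8 of the 18 genes lower in both treatments that have a window, and in 5 of the other 13.

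**Figure D4:**
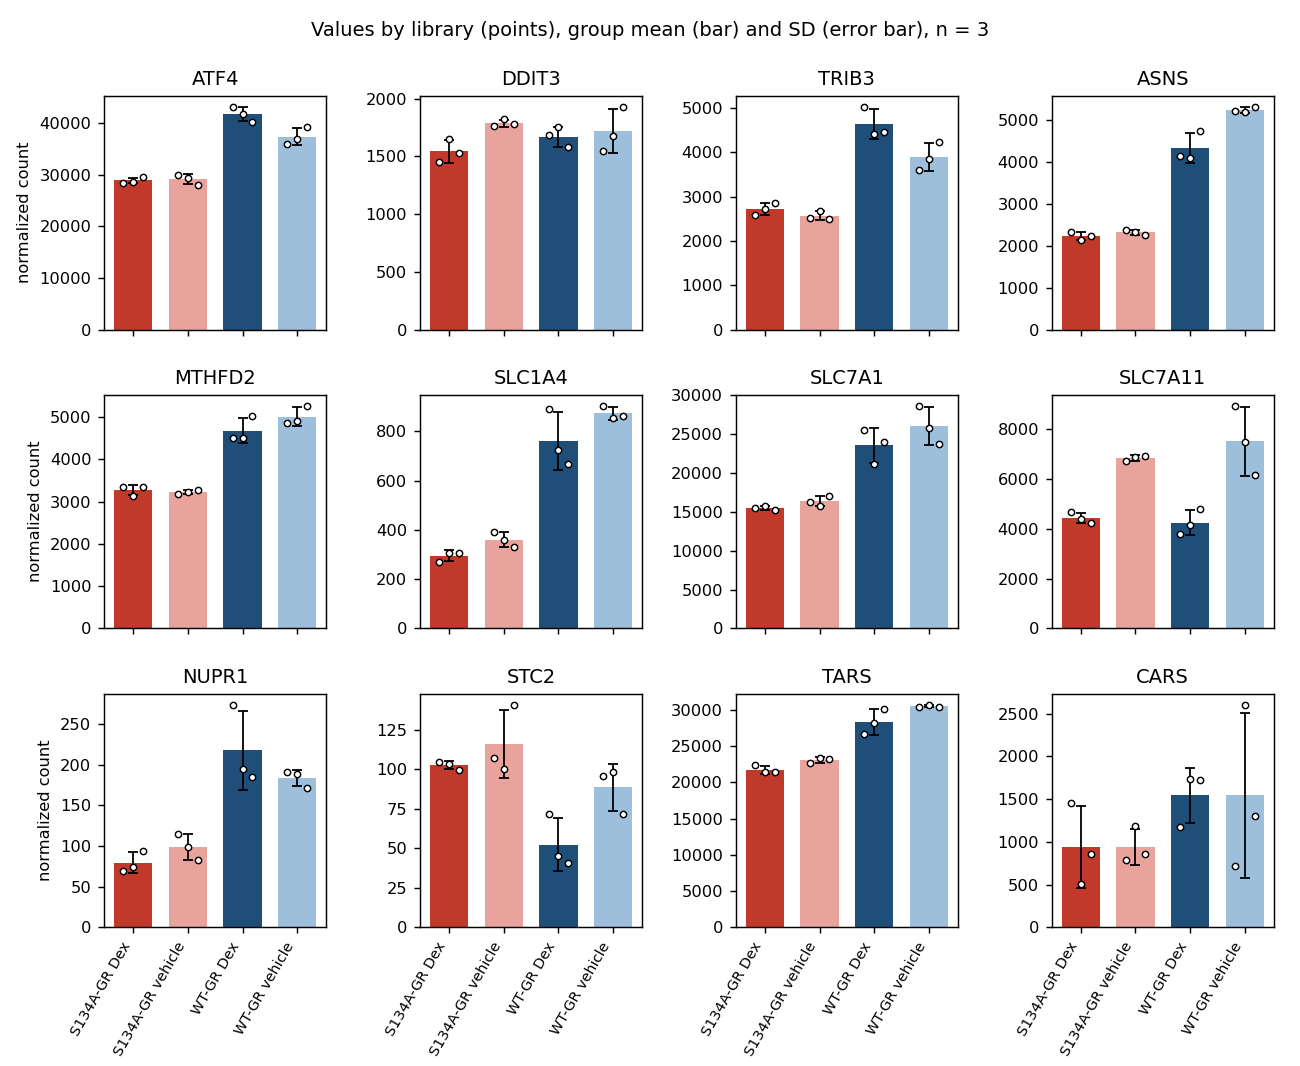
Normalized counts of 12 of the genes in each library (points), with group means (bars) and SDs (error bars, n = 3), S134A-GR left of WT-GR and Dex left of vehicle; each panel has its own axis from 0. In ATF4, TRIB3, ASNS, MTHFD2, SLC1A4, SLC7A1, NUPR1 and TARS all S134A-GR points lie below all WT-GR points, in SLC7A11 the Dex points of both genotypes lie below the vehicle points, and CARS spreads widely within groups.

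Dex moved few of these genes past the threshold within 6 h. In S134A-GR cells 4 of 38 passed, all lower, beside 15.7% of all genes tested (7.76% lower and 7.99% higher). In WT-GR cells 9 passed, 6 lower and 3 higher, beside 27.9% of all genes (14.0% lower and 13.9% higher). The shares called, 10.5% of the list for S134A-GR and 23.7% for WT-GR, were not above those of all genes. The median log2 change over the list was -0.092 in S134A-GR and -0.037 in WT-GR cells, against -0.016 and -0.020 over all genes. Of the 38 changes, 29 were negative for S134A-GR and 23 for WT-GR. Groups of the list did not overlap in 18 of 38 genes lower and 3 higher with Dex in S134A-GR cells. Over all genes these shares were 20.4% and 18.2%, so more of the list than of all genes was apart and lower. For WT-GR, 8 were apart and lower and 4 higher, against 18.3% and 16.7%. With Dex the list thus leaned lower for S134A-GR, although few of its genes passed. SLC7A11 and VLDLR were lower in both genotypes, as were 5.31% of all genes. These counts depended on single libraries. For S134A-GR cells 2 genes passed without S134A-GR Dex replicate 3 or S134A-GR vehicle replicate 2 or 3, and with WT-GR Dex replicate 1 or 3 left out, which enter through the shared estimate of the spread, 7 and 8 passed. For WT-GR cells 14 passed without WT-GR Dex replicate 3, and with only the compared groups in the fit 3 passed: ASNS, SLC7A11 and VLDLR. When edgeR scaled by library size, 8 were lower and none higher in S134A-GR cells, and 11 were lower and 1 higher in WT-GR cells, where 32.4% of all genes called were higher in place of 49.7%. The Dex comparison in each genotype uses the same vehicle libraries as the genotype comparison in vehicle, so the results are not independent of each other.

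SLC7A11, the cystine importer, gave the clearest response. In Dex it had 4657, 4407 and 4244 normalized counts in S134A-GR cells, against 6721, 6902 and 6922 in vehicle. In WT-GR cells SLC7A11 had 3802, 4148 and 4782 in Dex, against 8932, 7475 and 6152 in vehicle. Every Dex library lay below every vehicle library in both genotypes, and the WT-GR vehicle libraries spread most. SLC7A11 fell 1.54-fold in S134A-GR and 1.76-fold in WT-GR cells, by log2 changes of -0.63 ± 0.11 and -0.82 ± 0.11 (SE, limma adjusted p = 0.0010 and 9.9e-05), and the call passed in both genotypes under all 23 alternatives run. Its partner chain SLC3A2 changed by -0.10 in S134A-GR and 0.033 in WT-GR cells and passed in neither. VLDLR fell by log2 changes of -0.24 ± 0.066 in S134A-GR and -0.27 ± 0.066 in WT-GR cells (SE, limma adjusted p = 0.023 and 0.0077); in S134A-GR cells the call was lost without S134A-GR Dex replicate 2 (-0.20) or 3 (-0.22), or S134A-GR vehicle replicate 2 (-0.22) or 3 (-0.23).

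In WT-GR cells ATF4 and its feedback gene TRIB3 rose slightly with Dex. ATF4 changed by 0.16 ± 0.044 (log2, SE, limma adjusted p = 0.018) and TRIB3 by 0.25 ± 0.071 (0.017), and in both the Dex libraries lay above the vehicle libraries listed above. Neither call held without WT-GR Dex replicate 1, where ATF4 changed by 0.13 and TRIB3 by 0.20. The same was so without WT-GR vehicle replicate 1 (0.13 and 0.20) or 2 (0.15 and 0.25). In S134A-GR cells ATF4 changed by -0.012 and TRIB3 by 0.084, and neither passed. SARS, the seryl-tRNA synthetase, rose in WT-GR cells by 0.16 ± 0.035 (limma adjusted p = 0.0053) and changed by 0.064 in S134A-GR cells. With library-size scaling in edgeR neither rise of ATF4 and SARS in WT-GR cells passed, at 0.10 and 0.093 (adjusted p = 0.13 and 0.067). ASNS, CEBPG and PSAT1 fell in WT-GR cells by log2 changes of -0.28, -0.22 and -0.17 (limma adjusted p = 0.0037, 0.0054 and 0.0055), and their changes in S134A-GR cells were -0.054, 0.041 and -0.10, none of which passed. STC2 fell in WT-GR cells by -0.78 ± 0.23 (0.024), although its groups overlapped. Its call was lost without WT-GR Dex replicate 2 (-0.69) or 3 (-0.62), when both were left out (-0.29), and when WT-GR vehicle replicate 1 (-0.71) or 2 (-0.70) was.

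In S134A-GR cells PPP1R15A and PHGDH fell. PPP1R15A averaged 8563 ± 607 in Dex and 10875 ± 261 in vehicle (SD, n = 3 each), a log2 change of -0.35 ± 0.070 (limma adjusted p = 0.0034), and its change in WT-GR cells was -0.026. PHGDH changed by -0.18 ± 0.055 (0.042), close to the threshold. Its call was lost without S134A-GR Dex replicate 1 (-0.13) or 3 (-0.20), without S134A-GR vehicle replicate 1 (-0.18), 2 (-0.17) or 3 (-0.19), and when WT-GR Dex replicate 2 (-0.18) or WT-GR vehicle replicate 2 (-0.18) was left out. The PHGDH call was also lost in edgeR with TMM (-0.17), with no filter on low values (-0.18) and with the replicate number as a block (-0.18). The remaining 27 genes passed in neither genotype. Among them ALDH1L2, with low counts, had the largest fall of the 38 in S134A-GR cells (-0.76). Its S134A-GR groups did not overlap, and its change in WT-GR cells was -0.43. In S134A-GR cells ALDH1L2 passed under some alternatives, among them a pseudocount of 5 and library weights.

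**Figure D5:**
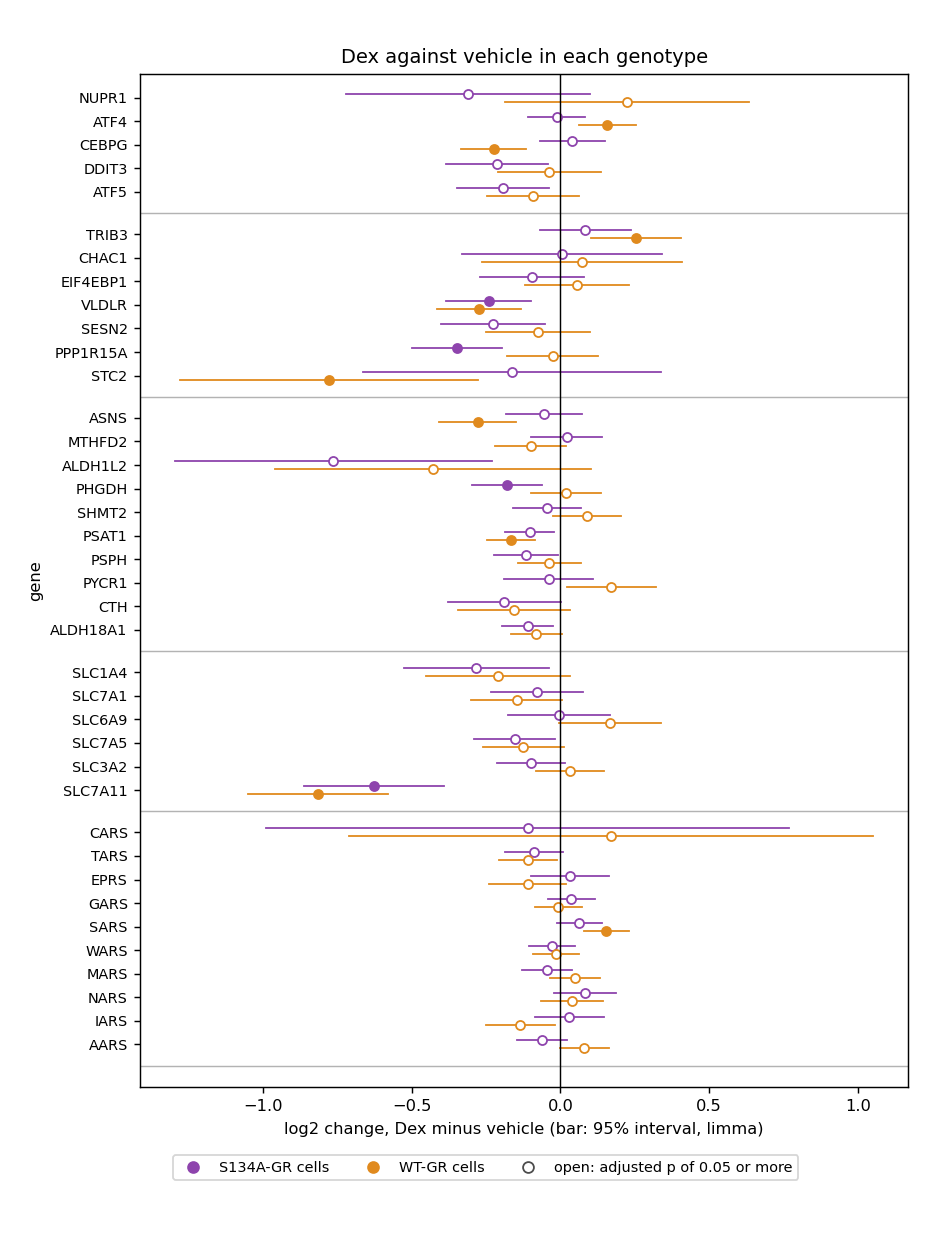
Log2 change of each of the 38 genes, Dex minus vehicle, in S134A-GR (purple, upper mark of each pair) and WT-GR cells (orange, lower mark), with 95% intervals from limma; open marks did not pass the adjusted p of 0.05. SLC7A11 lies to the left in both genotypes, at -0.63 and -0.82, while most other genes lie within 0.3 of 0. ALDH1L2, with low counts, lies at -0.76 in S134A-GR and -0.43 in WT-GR cells with open marks.

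Whether the responses differed between genotypes was tested as the S134A-GR change minus the WT-GR change. None of the 38 genes passed in limma, beside 0.414% of all genes tested (66 genes). At an unadjusted p under 0.05 there were 7 of 38 (18.4%), against 17.5% of all genes; edgeR called 0 and DESeq2 called 1, CEBPG. The 7 genes were CEBPG with a difference of 0.26 (95% interval 0.11 to 0.42), ASNS with 0.22 (0.043 to 0.41) and IARS with 0.17 (0.0025 to 0.33), and in the other direction PPP1R15A with -0.32 (-0.54 to -0.11), PHGDH with -0.20 (-0.37 to -0.031), ATF4 with -0.17 (-0.31 to -0.034) and AARS with -0.14 (-0.26 to -0.026). A response that passed in 1 genotype and not in the other was thus not shown to differ between them. The count moved with 1 library. Without WT-GR Dex replicate 3, 4 genes passed (PPP1R15A -0.37, SLC3A2 -0.20, CEBPG 0.28 and ASNS 0.29). Over all genes 1623 of 15883 passed in that fit, so calls rose well beyond the list. Without replicate 2 none of the list passed. With replicates 2 and 3 both left out, 1 WT-GR Dex library remained and the spread came from the other groups, so no count is given.

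The further lists below stand beside 26.3% lower and 23.4% higher over all genes in Dex, 26.7% and 23.8% in vehicle, and a median log2 difference of 0.011. With Dex, 7.76% of all genes were lower and 7.99% higher in S134A-GR cells, and 14.0% and 13.9% in WT-GR cells. Of 16 kinases and factors upstream of ATF4, 6 were lower and 3 higher in S134A-GR cells in Dex, and 8 were lower and 1 higher in vehicle, with median log2 differences of -0.066 and -0.14. As shares these were 37.5% lower and 18.8% higher in Dex, and 50% and 6.25% in vehicle. DNAJC3, an inhibitor of the eIF2 kinases, differed by -0.82 in Dex and -1.04 in vehicle, and EIF2B4 and EIF2B2, subunits of the eIF2B exchange factor, by -0.60 and -0.36 in Dex and -0.40 and -0.33 in vehicle (limma adjusted p at most 7.1e-05). With Dex, DNAJC3 rose in S134A-GR cells (0.30, limma adjusted p = 0.0046), and in WT-GR cells EIF2B4 rose (0.34, 1.2e-04) and EIF2AK2, the kinase PKR, fell (-0.36, 0.0086).

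Of 20 further ATF4 targets and partners 19 could be tested. In the genotype comparison 12 were lower and 2 higher in S134A-GR cells in Dex, and 12 were lower and 3 higher in vehicle, with median log2 differences of -0.32 and -0.25. As shares these were 63.2% lower and 10.5% higher in Dex, and 63.2% and 15.8% in vehicle. DDIT4, an inhibitor of mTORC1, differed by -0.99 in Dex and -0.80 in vehicle, and ADM2, a secreted peptide, by -1.20 and -1.07 (limma adjusted p at most 8.0e-06). LONP1, a mitochondrial protease, was lower in Dex (-0.56, limma adjusted p = 1.0e-05), and SQSTM1, the autophagy receptor p62, was higher in vehicle (0.43, 2.2e-05). With Dex, 5 rose and 3 fell in S134A-GR cells, and 8 rose and 3 fell in WT-GR cells. CEBPB, a C/EBP factor, rose by 1.19 in S134A-GR and 1.76 in WT-GR cells, and DDIT4 rose by 0.71 in S134A-GR and 0.91 in WT-GR cells. TNFRSF10B, a death receptor, fell by log2 changes of -0.64 in S134A-GR and -0.61 in WT-GR cells, with a limma adjusted p of at most 4.5e-06 in all 6 tests.

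A list of 13 genes held other cytosolic synthetases together with AIMP1, AIMP2 and EEF1E1, scaffold proteins of the multisynthetase complex. Of these, 5 were lower and none higher in S134A-GR cells in Dex, and 6 were lower and none higher in vehicle, among them YARS (-0.57 and -0.46) and DARS (-0.60 and -0.70, limma adjusted p at most 1.5e-05), for tyrosine and aspartate. Of the 17 mitochondrial synthetases, 7 were lower and 2 higher in Dex, and 5 were lower and 2 higher in vehicle, led by NARS2 (-0.60 and -0.76, limma adjusted p = 2.1e-05 and 2.6e-06). The shares of the cytosolic list were 38.5% lower in Dex and 46.2% in vehicle, and those of the mitochondrial list 41.2% lower and 11.8% higher in Dex, and 29.4% and 11.8% in vehicle. The median differences were -0.10 and -0.16 for the cytosolic and -0.15 and -0.081 for the mitochondrial list. Dex moved no gene of the cytosolic list past the threshold in S134A-GR cells and 3 in WT-GR cells, and of the mitochondrial list it raised 2 in S134A-GR and 3 in WT-GR cells.

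Other amino acid carriers (16 of 17 tested) were lower in S134A-GR cells in 7 cases and higher in 3 in Dex, and lower in 9 and higher in 3 in vehicle, with median log2 differences of -0.15 and -0.34. As shares these were 43.8% lower and 18.8% higher in Dex, and 56.2% and 18.8% in vehicle. SLC6A6, the taurine transporter, differed by -0.76 in Dex and -0.68 in vehicle, and SLC1A1, a glutamate transporter, by -0.75 and -0.71 (limma adjusted p at most 4.8e-05). With Dex, 5 of them rose in each genotype and 1 fell in S134A-GR cells. SLC7A2, a carrier of cationic amino acids like SLC7A1, rose by 2.55 in S134A-GR and 2.39 in WT-GR cells, SLC1A3, a carrier of glutamate and aspartate, by 0.95 in S134A-GR and 1.01 in WT-GR cells, and SLC38A2, a carrier of small neutral amino acids, by 0.75 in S134A-GR and 0.53 in WT-GR cells (log2, limma adjusted p at most 9.6e-05).

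Among 13 further folate and one-carbon genes, 5 were lower and 4 higher in S134A-GR cells in Dex, and 6 were lower and 4 higher in vehicle, with median log2 differences of 0.0087 and -0.016. The shares were 38.5% lower and 30.8% higher in Dex, and 46.2% and 30.8% in vehicle. MTHFD1L, the mitochondrial formyltetrahydrofolate synthetase, differed by -0.54 in Dex and -0.52 in vehicle, while AMT, of the glycine cleavage system, was higher by 1.27 in vehicle (limma adjusted p at most 1.7e-05 for these). Among the 10 transsulfuration and glutathione genes tested, 5 were lower and 1 higher in Dex, and 4 were lower and 2 higher in vehicle, with medians of -0.13 and -0.070. The shares were 50% lower and 10% higher in Dex, and 40% and 20% in vehicle. GSR, glutathione reductase, differed by -0.70 in Dex and -0.44 in vehicle and rose with Dex by 0.62 in S134A-GR and 0.88 in WT-GR cells, and GCLC, the catalytic subunit that starts glutathione synthesis, rose with Dex by 0.89 in S134A-GR and 0.73 in WT-GR cells (limma adjusted p at most 8.3e-06 for these). Of 8 proline, arginine and aspartate genes tested, 3 were lower and 2 higher in each treatment, or 37.5% lower and 25% higher, with medians of 0.15 in Dex and 0.12 in vehicle. ASS1, argininosuccinate synthase, which makes arginine with ASL, had the largest difference of these, at -3.49 in Dex and -3.10 in vehicle (limma adjusted p = 1.6e-10 and 3.3e-10). With Dex, the folate and one-carbon list had 2 genes higher and none lower in S134A-GR cells, and 2 higher and 2 lower in WT-GR cells. The glutathione list had 3 higher and none lower in S134A-GR cells, and 3 higher and 1 lower in WT-GR cells. Of the proline, arginine and aspartate list none passed in S134A-GR cells, and 2 were higher and 1 lower in WT-GR cells.

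Of the 19 genes by which mTORC1 senses amino acids, 3 were lower and 5 higher in S134A-GR cells in Dex, and 2 were lower and 5 higher in vehicle, with median log2 differences of 0.079 and 0.041. The shares, 15.8% lower and 26.3% higher in Dex, and 10.5% and 26.3% in vehicle, were near or below those of all genes. RRAGB, a Rag GTPase, was higher by 0.67 in Dex and 0.73 in vehicle (limma adjusted p = 9.7e-06 and 4.5e-06). With Dex 2 rose and 2 fell in S134A-GR cells, and 2 rose and 1 fell in WT-GR cells. GATSL3, an older symbol of the arginine sensor CASTOR1, rose with Dex by 0.93 in S134A-GR and 1.89 in WT-GR cells, and was the only gene of the 38 and of these further lists whose response differed between genotypes in limma (-0.96 ± 0.14, SE, limma adjusted p = 0.0064).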

How the data were processed

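Poly(A) mRNA of 12 libraries was measured, 3 for each genotype and treatment. The submitters' processing notes list DESeq2 1.22.2, FastQC 0.11.7, featureCounts (Subread) and hg38; an aligner and an annotation were not given in the sources used here. As deposited, the authors' files give a normalized signal per gene, a count divided by a size factor, as read from the values: 100% were whole reads within 0.01 reads. Recovered depth was 56.4 to 100.6 M reads; even counts made up 58.2 to 67.5% of counts from 1 to 20. Dex files list 26485 names for 19907 values, so their values were given the vehicle names by line order (r with the vehicle mean 0.982 to 0.986 by line, -0.0059 to -0.0040 by name).

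limma 3.58.1 with a mean-variance trend (R 4.3.3) was fitted to log2(value + 1) of all 12 libraries, for genes of at least 10 in at least 3 libraries, two-sided, with Benjamini-Hochberg adjustment over 15957 genes. Fold changes on this scale understate changes of low genes. Alternatives were pseudocounts of 0.5 and 5, no filter, a minimum of 100, edgeR 4.0.16 (TMM or library-size scaling) and DESeq2 1.42.0 on recovered reads, a replicate block, only the compared groups, library weights, and leaving out libraries. edgeR with TMM called 7855 genes for genotype in Dex, 8021 in vehicle, 2528 for Dex in S134A-GR, 4440 in WT-GR and 61 for the difference. Intervals cover the spread between libraries only. The scripts were tested on simulated data.

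The 38 genes and the further lists were chosen with earlier results of these data known. Values in every library are given for genes called with a log2 change of at least 0.5 in size, and for ATF4 and DDIT3; each further list names at most 3 called genes per comparison by lowest p. CARS was shown for its spread after its values were seen. CBS, ASPG and some of the markers were not used here.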

Additional observations from a re-analysis of the deposited data

How the results depend on the processing

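No call of the 38 genes changed sign under the alternatives run. For genotype, the count of calls stayed within 1.5 times of 28 in Dex and 27 in vehicle throughout (27 to 28 and 24 to 29 with 1 library left out). For Dex in S134A-GR cells, 4 became 8 with library-size scaling in edgeR, 7 with DESeq2, 10 with only the compared groups, 16 when libraries were weighted, 11 without WT-GR Dex replicates 2 and 3 together, and ran from 2 to 8 with 1 library left out. For Dex in WT-GR cells, 9 became 3 with only the compared groups and 17 with library weights, and ran from 6 to 14 with 1 library left out. For the difference of responses, 0 became 1 with DESeq2 and 8 when libraries were weighted. The count ran from 0 to 4 with 1 library left out. Over all genes, 66 became 504 with DESeq2, 2854 when libraries were weighted and 1623 without WT-GR Dex replicate 3. Over all genes, calls for Dex in S134A-GR cells went from 2513 to 2551 with library-size scaling and 3035 with DESeq2. They rose to 3439 with only the compared groups and 5116 with library weights. Of these last, 49.8% and 47.7% were higher, while in the list 0 of 10 and 1 of 16 were. For Dex in WT-GR cells, 4455 became 2490 with only the compared groups and 7113 with library weights. The cause was not tested.

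With the replicate number as a replicate block, 28 genes passed for genotype in Dex, 25 in vehicle, 3 for Dex in S134A-GR, 9 in WT-GR and 0 for the difference. The deviations of the 18 same-numbered pairs of libraries across groups correlated at r = -0.0852 to 0.0551, none over 0.1. Those of 36 other pairs correlated at -0.0765 to 0.0921. No shared signal of same-numbered libraries was thus found, but whether they share a culture or a day is not in the labels. Depth limits NUPR1, STC2 and ALDH1L2, whose counts were the lowest.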
